A study of Mus musculus with 14 samples.

Results

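The liver X receptors (LXRs) and 4 of their target genes were followed in SiglecF-positive, CD11c-positive cells from the lungs of bleomycin-treated and control mice. The members were the rows of the deposited table named Nr1h3 and Nr1h2, which encode the receptors LXR alpha and LXR beta, and Abca1, Abcg1, Mylip and Lpcat3. These are 6 of 43432 genes, and all 6 passed the filter on low values that left 17390 genes for testing. RNA-seq was done on 14 libraries of these cells, sorted from male 129S1 mice aged 10 to 12 weeks. Alveolar macrophages carry both the lectin SiglecF and the integrin chain CD11c. The sort also split the cells into low and high for MHC class II (MHCII), the molecules that show peptides to helper T cells. Mice had received bleomycin, a drug that injures the lung and leads to fibrosis, at a labelled dose of 3 U/k into the trachea, or water by the same route. The 5 groups were MHCII-low cells of mice given water, called controls here (2 libraries, with the replicate labels 1 and 3), and MHCII-low and MHCII-high cells taken 2 or 4 weeks after bleomycin (3 libraries each). MHCII-high cells of control mice were not analysed here, so every comparison with control is within MHCII-low cells. The labels do not say that replicates came from separate animals, so p-values measure only the spread between these samples.

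LXRs are nuclear receptors that are switched on by oxidized forms of cholesterol and by late intermediates of its synthesis, and they bind DNA as partners of retinoid X receptors (RXRs). In macrophages they raise the genes for cholesterol export and limit uptake. They work opposite to SREBP2, a transcription factor that is released when sterol is low and raises the genes of cholesterol synthesis and uptake. Alveolar macrophages take up and clear surfactant, a lipid-rich film, and need cholesterol export to do so without filling with lipid.

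Differences were tested with limma, a linear model of log2 values that shares its estimate of spread across genes, and a gene was called when its p, adjusted over all tested genes, was under 0.05. Abca1 and Mylip were lower in MHCII-low cells 2 weeks after bleomycin than in controls, by 2.46-fold and 2.65-fold, and both were higher again at 4 weeks than at 2 weeks, by 2.12-fold and 2.02-fold. Abca1 was 1.71-fold higher in MHCII-high than in MHCII-low cells at 2 weeks. At 4 weeks it lay lower in every MHCII-high library than in every MHCII-low library, a difference that did not pass the test. Mylip was 1.61-fold lower in MHCII-high cells over the mean of both times. Abcg1, Lpcat3 and both receptors passed the test in none of the 8 comparisons.

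The stretch just before the start of Abca1 is shown because a direct repeat bound by LXR and RXR is known there, and because Abca1 was among the members called. The promoter table from RefSeq (GRCm38.p6, the build of the deposited coordinates) held 6 promoters for 5 of the 6 members and none for Abcg1. The 250 bases before each start were searched on both strands for the repeat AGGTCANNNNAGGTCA, which is the hexamer AGGTCA repeated after a gap of 4 bases. With up to 2 mismatches none of the 6 windows held a match, against 2.57% of 32851 RefSeq promoters. With up to 3 mismatches, a limit chosen after the stricter search had found none, Abca1 held 1 and the other members held none, against 18.51% of all promoters. The match, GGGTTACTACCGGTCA, lies on the strand opposite to the gene, 67 to 52 bases before the start. The exact hexamer AGGTCA was in none of the 6 windows and in 14.02% of all promoters. The letters CACGTG (an E-box, the same on both strands) lay 147 to 142 bases before the start of Abca1 and in 6.02% of all promoters. The window is chr4:53159896-53160145, minus strand, written 5′ to 3′ along the gene, with the 2 hexamers of the match in capitals as they read on the gene's strand.
Abca1 upstream window: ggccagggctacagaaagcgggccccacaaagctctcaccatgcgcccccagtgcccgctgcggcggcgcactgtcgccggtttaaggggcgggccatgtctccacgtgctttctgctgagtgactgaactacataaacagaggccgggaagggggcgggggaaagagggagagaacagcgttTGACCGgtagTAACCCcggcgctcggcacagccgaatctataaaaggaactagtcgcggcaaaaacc

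Values are normalized counts, which are gene counts scaled for library depth. Recovered depth was 15106415 to 88059675 reads per library, and the members had between 198 (Nr1h3) and 162722 (Abcg1) reads in a library. Mitochondrial ribosomal RNA took 3.12% to 28.99% of the reads, and in the 2-week MHCII-high libraries (22.51% to 26.25%) it took more than in any 2-week MHCII-low library (3.42% to 18.32%). Both controls (21.67% and 24.08%) also lay above every 2-week MHCII-low library in this share. The 4 MHCII genes of the sort list were higher and Siglecf was lower in MHCII-high cells at both times, and Siglecf (3056 to 9551 normalized counts) and Itgax, which encodes CD11c (25185 to 44133), were read in every library. Within MHCII-low cells, the MHCII genes H2-Aa, H2-Ab1 and Cd74 were called higher at 2 weeks than in control, and H2-Ab1 at 4 weeks. Mean H2-Aa was 132.3 in controls, 1077 in 2-week MHCII-low and 31980 in 2-week MHCII-high cells. All libraries are bulk samples of sorted cells, so fewer cells of a type and less RNA per cell cannot be told apart.

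To compare levels between genes, normalized counts were divided by the exon length deposited with each gene. Abcg1 was the most abundant member, with a mean of 14770 normalized counts per kb over the 14 libraries, the 54th highest of the 17390 tested genes. Lpcat3 followed with 1425 per kb, Mylip with 664.5, Abca1 with 535.2, Nr1h3 with 292.8 and Nr1h2 with 201.0. The highest library exceeded the lowest 5.81-fold for Mylip, 3.78-fold for Nr1h3, 3.49-fold for Abca1, 3.11-fold for Abcg1, 2.25-fold for Nr1h2 and 1.65-fold for Lpcat3. Mylip thus had the widest range of the 6 and Lpcat3 the narrowest. The plot of the 6 genes by library shows these values.

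**Figure D1:**
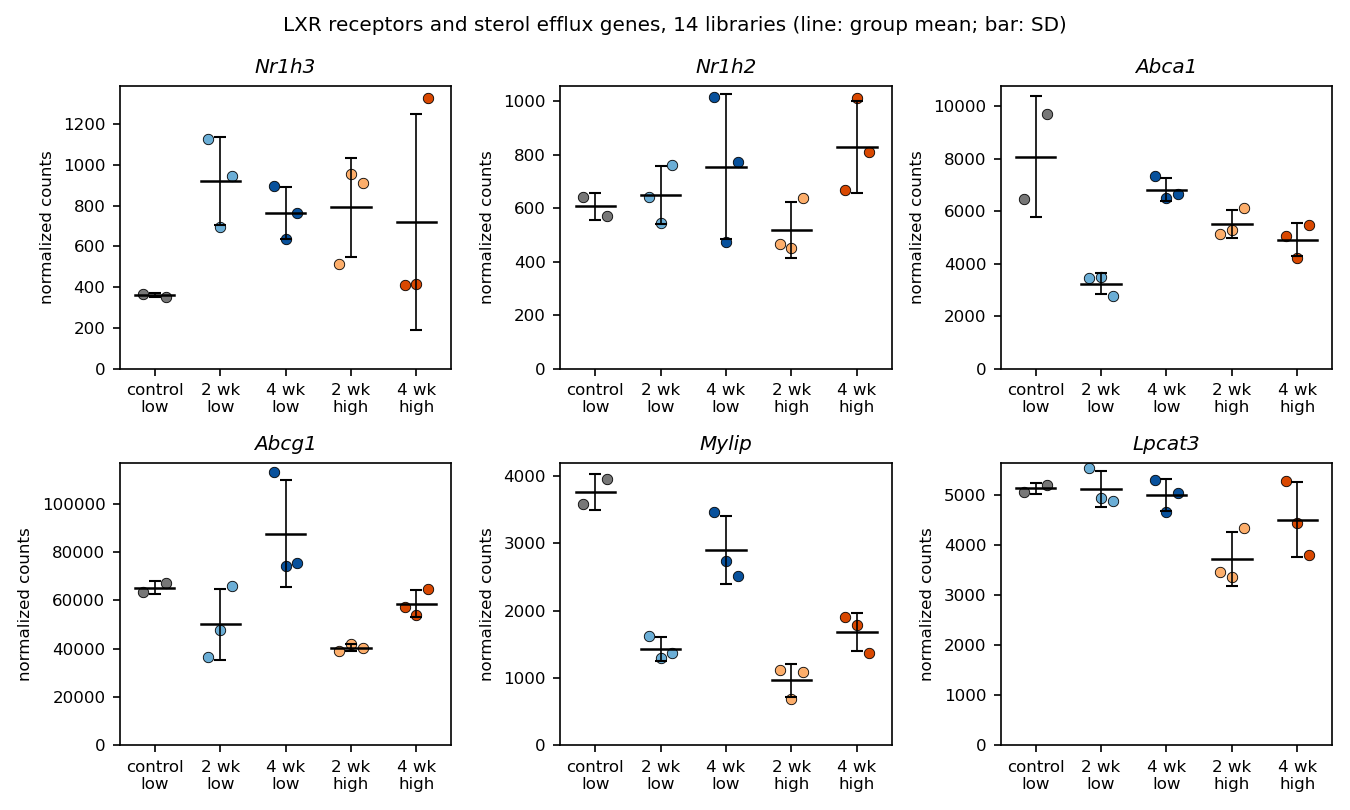
Normalized counts (y axis, from 0) of the 6 genes in each of the 14 libraries, by group (x axis: MHCII-low cells of controls, then MHCII-low and MHCII-high cells 2 and 4 weeks after bleomycin). Points are libraries in replicate order, lines are group means and bars are SDs; Abca1 is lowest in the 2-week MHCII-low libraries (2782 to 3470) and Mylip is highest in the controls (3578 and 3957).

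Nr1h3 encodes LXR alpha, the receptor found mainly in macrophages, liver and fat. The gene (ENSMUSG00000002108) spans chr2:91184061-91202834 on the minus strand (GRCm38, as for all spans here). Its normalized counts were 368 and 352 in the controls, 1125, 696 and 943 in 2-week MHCII-low cells, and 894, 637 and 762 in 4-week MHCII-low cells. In MHCII-high cells they were 513, 954 and 911 at 2 weeks and 412, 413 and 1330 at 4 weeks. Every MHCII-low library after bleomycin lay above both controls, while the 4 bleomycin groups overlapped one another. In the 4-week MHCII-high group, replicate 3 was far above the other 2 libraries. In MHCII-low cells the log2 fold change against control was 1.33 ± 0.41 (SE) at 2 weeks, with a limma adjusted p of 0.113, and 1.07 ± 0.41 at 4 weeks, with a limma adjusted p of 0.69. Neither passed the threshold of 0.05. The 2-week difference did so without replicate 3 of the 4-week MHCII-high cells (adjusted p 0.016), with DESeq2, a test on counts (0.035), and with the trend of each library on GC content removed (0.027). Over all alternatives its adjusted p ranged from 0.016 to 0.6.

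Nr1h2 encodes LXR beta, which is made in nearly all tissues. The gene (ENSMUSG00000060601) spans chr7:44549616-44553951 on the minus strand. Its normalized counts were 643 and 571 in the controls, 642, 546 and 760 in 2-week MHCII-low cells, and 1016, 475 and 774 in 4-week MHCII-low cells. MHCII-high cells had 465, 451 and 638 at 2 weeks and 668, 1010 and 812 at 4 weeks. By group mean the order was 4-week MHCII-high (830.1 ± 171.9, SD), 4-week MHCII-low, 2-week MHCII-low, control and 2-week MHCII-high cells (517.9 ± 104), and every neighbour in that order overlapped the next. The largest difference, 4 against 2 weeks in MHCII-high cells, had a log2 fold change of 0.68 ± 0.28 (SE) with a limma adjusted p of 0.269, although the libraries did not overlap.

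Within a library, the ratio of Nr1h3 to Nr1h2 per kb compares the receptors free of library scaling. It was 0.767 and 0.826 in the controls. In 2-week MHCII-low cells it was 2.35, 1.71 and 1.66, and in 4-week MHCII-low cells 1.18, 1.80 and 1.32. MHCII-high cells had 1.48, 2.83 and 1.91 at 2 weeks and 0.826, 0.547 and 2.19 at 4 weeks. Nr1h3 was thus the less abundant receptor transcript in both controls and in 2 of the 3 libraries of 4-week MHCII-high cells, and the more abundant in the other 10 libraries. No test was run on the ratio. It is not free of each library's GC trend, since Nr1h3 has 46.51% GC and Nr1h2 58.88%.

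**Figure D2:**
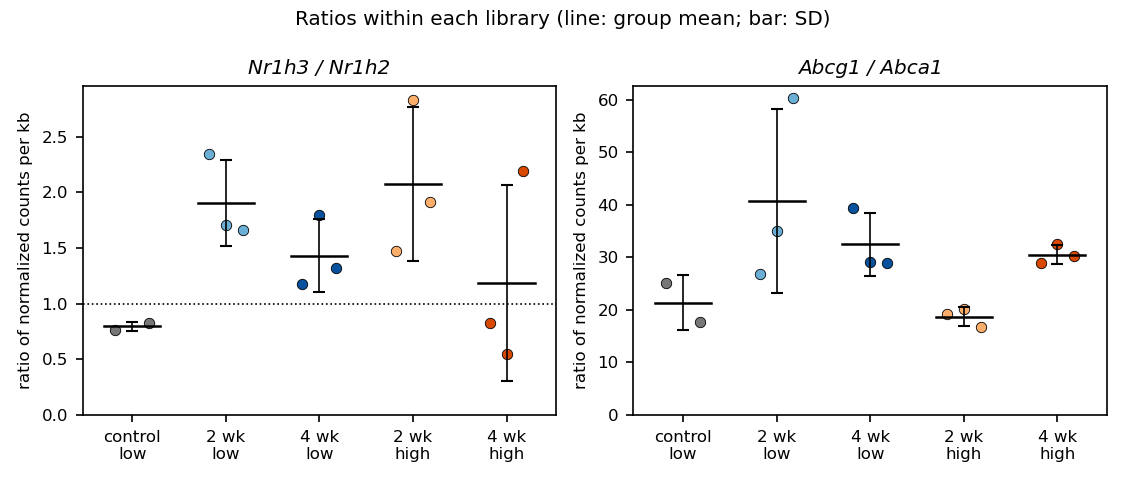
Ratio of normalized counts per kb (y axis, from 0) of Nr1h3 to Nr1h2 (left, dotted line at 1) and of Abcg1 to Abca1 (right) within each of the 14 libraries, by group (x axis); points are libraries, lines are means and bars are SDs. The receptor ratio is below 1 in both controls, and the transporter ratio is 16.73 to 20.12 in 2-week MHCII-high cells and 26.85 to 60.39 in 2-week MHCII-low cells.

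Abca1 encodes the transporter that loads cholesterol and phospholipid onto lipid-poor apolipoprotein A-I. The gene (ENSMUSG00000015243) spans chr4:53030787-53159895 on the minus strand. In MHCII-low cells its normalized counts were 6445 and 9712 in the controls, 3457, 3470 and 2782 at 2 weeks, and 7326, 6486 and 6654 at 4 weeks. The 2-week values lay below every control and every 4-week value, and the 4-week values overlapped the controls. Against control, Abca1 fell by 1.30 ± 0.19 (SE) on the log2 scale at 2 weeks, with a limma adjusted p of 0.000329. Between 2 and 4 weeks it rose by 1.08 ± 0.17, with a limma adjusted p of 0.00134. The difference between 4 weeks and control was -0.22 ± 0.19, with a 95% interval from -0.61 to 0.18. Fitting only the groups compared, with fewer libraries to estimate the spread, ended the 2-week call (adjusted p 0.095) and the call between the times (0.064).

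MHCII-high cells had 5141, 5295 and 6135 normalized counts of Abca1 at 2 weeks and 5057, 4224 and 5462 at 4 weeks. At 2 weeks all 3 lay above the MHCII-low cells of that time, and at 4 weeks all 3 lay below theirs. High minus low was 0.77 ± 0.17 (SE) on the log2 scale at 2 weeks (limma adjusted p 0.0143) and -0.48 ± 0.17 at 4 weeks (limma adjusted p 0.172). Within MHCII-high cells the change from 2 to 4 weeks was -0.17 ± 0.17 (adjusted p 0.713), and these libraries overlapped. By group mean the order was control (8078 ± 2310, SD, n = 2), 4-week MHCII-low (6822 ± 444.4, n = 3), 2-week MHCII-high (5524 ± 535.3), 4-week MHCII-high (4914 ± 631.6) and 2-week MHCII-low cells (3236 ± 393.6). Control and 4-week MHCII-low cells overlapped, as did the MHCII-high cells of both times, and the remaining neighbours did not. The 2-week call of MHCII-high against MHCII-low cells was lost with scaling to library totals (0.62, adjusted p 0.13) and with the GC trend removed (0.44, adjusted p 0.16). It was also lost without MHCII-low replicate 3 (adjusted p 0.066), MHCII-high replicate 2 (0.053) or MHCII-high replicate 3 (0.063), and over all alternatives its adjusted p ranged from 0.0012 to 0.16. Relative to the median of all genes the difference was 0.70 as deposited, 0.69 with library totals and 0.70 with the GC trend removed.

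The high-minus-low difference of Abca1 at 4 weeks minus that at 2 weeks was -1.25 ± 0.24 (SE) on the log2 scale. Its unadjusted limma p of 4.11e-05 was the 5th smallest of 17390 and its adjusted p was 0.12. No gene passed 0.05 in this comparison with limma or with edgeR's quasi-likelihood test, and 56 did with DESeq2, in which Abca1 had an adjusted p of 0.0018. At an unadjusted p under 0.05, limma called 987 genes (5.68%). The order seen for Abca1, above in every library at 2 weeks and below in every library at 4 weeks, was shared by 53 of 17390 genes (0.305%).

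Abcg1 encodes the transporter that passes cholesterol to high-density lipoprotein, and mice without it build up lipid in alveolar macrophages. The gene (ENSMUSG00000024030) spans chr17:31057698-31115777 on the plus strand. Normalized counts were 63386 and 67223 in the controls, 36414, 47792 and 65907 in 2-week MHCII-low cells, and 113369, 74219 and 75450 in 4-week MHCII-low cells. In MHCII-high cells they were 38887, 41810 and 40268 at 2 weeks and 57448, 53782 and 64751 at 4 weeks. Each 4-week group lay wholly above the 2-week group of the same MHCII level, and the 2-week MHCII-low libraries spread widely enough to overlap the controls. In MHCII-low cells 4 minus 2 weeks was 0.82 ± 0.20 (SE) on the log2 scale, with a limma adjusted p of 0.0513. It passed the threshold without 2-week MHCII-low replicate 3 (1.04, adjusted p 0.01), with a filter of at least 50 normalized counts in 2 libraries (0.042) and with DESeq2 (0.0066), and over all alternatives its adjusted p ranged from 0.0066 to 0.47. In MHCII-high cells 4 minus 2 weeks was 0.54 ± 0.20, with a limma adjusted p of 0.206. MHCII-high minus MHCII-low was -0.27 ± 0.20 at 2 weeks and -0.56 ± 0.20 at 4 weeks, with limma adjusted p of 0.569 and 0.169. The 4-week libraries of both MHCII levels did not overlap.

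Abcg1 and Abca1 act on the same export route with different acceptors, and their ratio per kb within a library varied between groups. It was 25.1 and 17.6 in the controls and 26.9, 35.1 and 60.4 in 2-week MHCII-low cells. It was 39.4, 29.2 and 28.9 in 4-week MHCII-low cells, 19.3, 20.1 and 16.7 in 2-week MHCII-high cells and 29.0, 32.5 and 30.2 in 4-week MHCII-high cells. At 2 weeks the ratio was lower in every MHCII-high than in every MHCII-low library, and at 4 weeks the libraries overlapped. No test was run on this ratio either.

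Mylip encodes an E3 ubiquitin ligase, also called IDOL, that marks lipoprotein receptors for degradation. The gene (ENSMUSG00000038175) spans chr13:45389742-45412019 on the plus strand. In MHCII-low cells its normalized counts were 3578 and 3957 in the controls, 1624, 1298 and 1362 at 2 weeks and 3471, 2731 and 2512 at 4 weeks. The 3 groups did not overlap, and the 2-week cells were lowest. Against control, Mylip fell by 1.40 ± 0.24 (SE) on the log2 scale at 2 weeks, with a limma adjusted p of 0.00165. It then rose by 1.02 ± 0.21 to 4 weeks, with a limma adjusted p of 0.0176. At 4 weeks the difference from control was -0.39 ± 0.24, with a 95% interval from -0.88 to 0.11. The 2-week call was lost without control replicate 3 (-1.33, adjusted p 0.053). The call from 2 to 4 weeks was lost without 2-week MHCII-low replicate 2 (adjusted p 0.1) or 3 (0.078), without 4-week MHCII-low replicate 1 (0.12) or 2 (0.061), and with no filter on low values (0.057). Fitting only the groups compared ended both calls (adjusted p 0.05, at the threshold, and 0.11).

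MHCII-high cells had 1119, 682 and 1093 normalized counts of Mylip at 2 weeks and 1904, 1789 and 1367 at 4 weeks. At both times they lay below every MHCII-low library of that time. High minus low was -0.59 ± 0.21 (SE) on the log2 scale at 2 weeks (limma adjusted p 0.158), -0.78 ± 0.21 at 4 weeks (0.0536) and -0.69 ± 0.15 over the mean of both times (0.00592). The 4-week difference passed the threshold under 8 alternatives, among them edgeR (adjusted p 0.041) and DESeq2 (0.012), and its adjusted p ranged from 0.012 to 0.23. The call over both times was lost with the mitochondrial ribosomal RNA share as a covariate (-0.60, adjusted p 0.11). Within MHCII-high cells 4 minus 2 weeks was 0.83 ± 0.21, with a limma adjusted p of 0.0613. By group mean the order was control (3768 ± 267.6, SD, n = 2), 4-week MHCII-low (2905 ± 502.7, n = 3), 4-week MHCII-high (1687 ± 282.9), 2-week MHCII-low (1428 ± 173) and 2-week MHCII-high cells (964.5 ± 245.4). Of these neighbours only the 4-week MHCII-high and 2-week MHCII-low cells overlapped.

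Lpcat3 encodes an acyltransferase that puts polyunsaturated fatty acids into membrane phospholipids and is an LXR target. The gene (ENSMUSG00000004270) spans chr6:124663027-124704418 on the plus strand and overlaps Emg1 on the minus strand. Whether counting used strand is not given in the sources used here, so reads of the overlap may belong to either gene, and Emg1 had a mean of 1083.1 normalized counts. Lpcat3 had 5047 and 5203 in the controls, 5526, 4938 and 4865 in 2-week MHCII-low cells and 5293, 4650 and 5040 in 4-week MHCII-low cells. In MHCII-high cells it had 3456, 3355 and 4343 at 2 weeks and 5282, 4426 and 3790 at 4 weeks. The 3 MHCII-low groups overlapped, and the 2-week MHCII-high cells lay below the MHCII-low cells of the same time. That difference was -0.47 ± 0.16 (SE) on the log2 scale, with a limma adjusted p of 0.135. Against control, MHCII-low cells differed by -0.01 ± 0.18 at 2 weeks, with a 95% interval from -0.38 to 0.37, and by -0.04 ± 0.18 at 4 weeks, from -0.41 to 0.33.

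**Figure D3:**
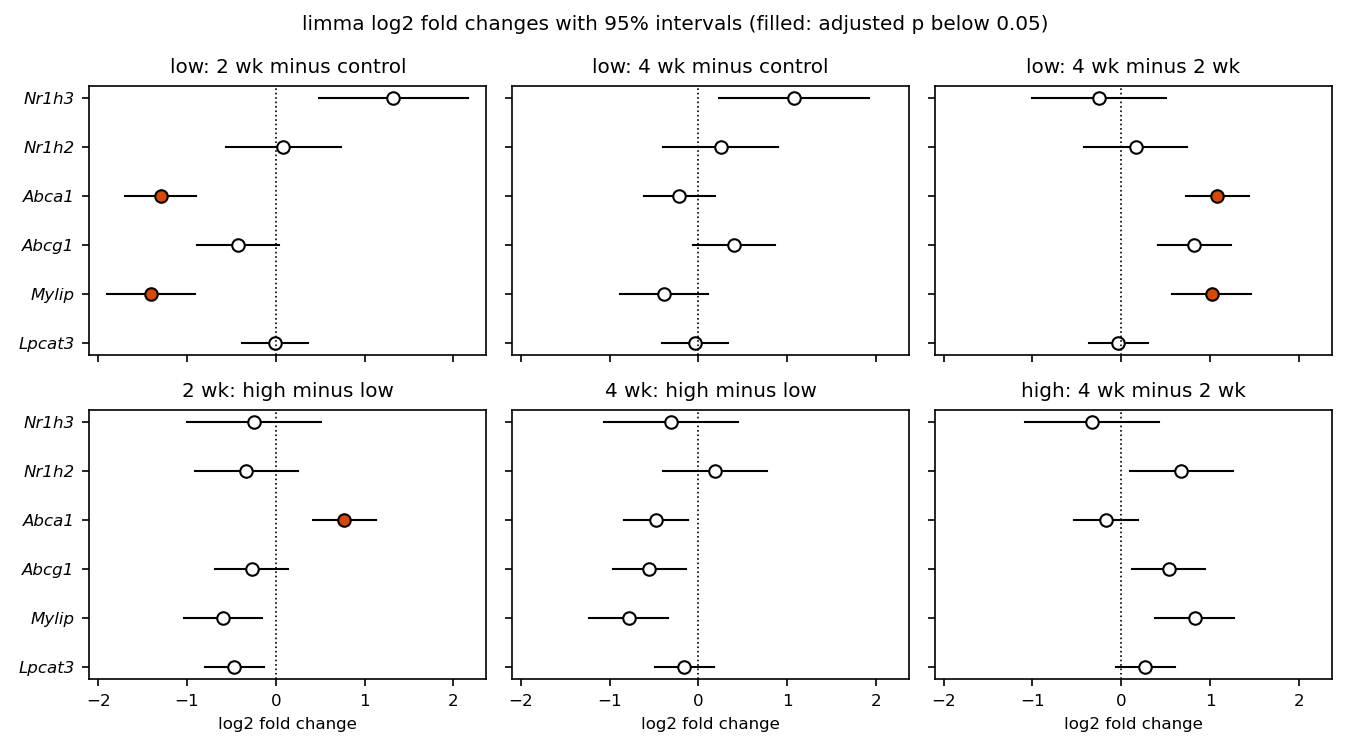
Log2 fold changes (x axis) of the 6 genes (y axis) in 6 comparisons, with 95% intervals from limma; filled points have an adjusted p below 0.05. Filled points are Abca1 and Mylip in the 2-week against control and the 4-week against 2-week panels of MHCII-low cells, and Abca1 in the 2-week panel of MHCII-high minus MHCII-low.

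Read against all genes, the counts of members were as follows. In MHCII-low cells at 2 weeks 2 of the 6 were lower than in control, where 0.426% of tested genes were called lower, and 3 had libraries that did not overlap, as 35.3% of tested genes did. At 4 weeks none of the 6 was called against control with limma, where 0.046% of tested genes were, and 1, Nr1h3, had an unadjusted p under 0.05, as did 6.12% of genes. Both comparisons use the same 2 control libraries. At 4 weeks 3 members also did not overlap with control (Abcg1, Mylip and Nr1h3), against 27.4% of genes. In MHCII-low cells between the times 2 of 6 were called higher, against 0.109% of genes called in that direction, and 3 did not overlap, against 14%.

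Between MHCII levels, 1 of 6 was called at 2 weeks, against 2.87% of tested genes, and 3 did not overlap, against 21.1%. At 4 weeks limma called none of the 6 and 2.5% of genes, while edgeR and DESeq2 called 1 each, 3 had an unadjusted limma p under 0.05 (15% of genes) and 3 did not overlap (16.4%). Over the mean of both times 1 of 6 was called, against 7.21% of genes. In MHCII-high cells between the times limma and edgeR called none of the 6, DESeq2 called 1, limma called 1.07% of genes, 3 members had an unadjusted limma p under 0.05 (14% of genes) and 3 did not overlap (15%). For the difference of differences, limma called none of the 6 and 0.0% of genes.

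Genes of the same pathway were described from lists, each by its counts. The receptors' partner Rxra, which encodes RXR alpha, had 7384 ± 1581 normalized counts (SD, n = 2) in controls and 11350 ± 803.9 (n = 3) in 2-week MHCII-low cells, with a log2 fold change of 0.64 ± 0.20 (SE) and a limma adjusted p of 0.115. Of 13 tested RXR genes and coregulators, 1 was called in that comparison. This was Nrip1, a corepressor of nuclear receptors, which fell by 0.87 ± 0.18 (adjusted p 0.0111). The third RXR gene, Rxrg, was read in no library.

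Of the lipoprotein receptors marked by MYLIP, Lrp8 had 1200 ± 14.4 normalized counts (SD, n = 2) in controls, 1433 ± 231.8 (n = 3) in 2-week and 1142 ± 18.2 in 4-week MHCII-low cells. In MHCII-high cells it had 1219 ± 177.2 at 2 weeks and 901.5 ± 243.9 at 4 weeks. At 2 weeks against control the log2 fold change was 0.24 ± 0.24 (SE), with a limma adjusted p of 0.756, where Mylip was lower. Vldlr was at most 39.6 normalized counts in any library. Lrp8 and Vldlr were called neither in MHCII-low cells nor between MHCII levels.

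SREBP2 and the genes it drives were higher in MHCII-low cells at the time when Abca1 and Mylip were lower. Of 14 genes tested, 12 rose and none fell at 2 weeks against control, with a median log2 fold change of 2.06, beside 1.48% of all genes called higher and a median of -0.09 over all genes. Sqle, squalene epoxidase, rose by 2.83 ± 0.22 (SE) with a limma adjusted p of 8.66e-08, and Cyp51, which demethylates lanosterol, rose by 2.71 ± 0.25 (9.06e-07). From 2 to 4 weeks 11 of the 14 fell and none rose, with a median of -1.60, beside 0.748% of all genes called lower and a median of 0.03. Sqle fell by 2.48 ± 0.20 (adjusted p 3.23e-07) and Cyp51 by 2.34 ± 0.23 (5.46e-06). Between MHCII levels none of the 14 was called at 2 weeks with limma. At 4 weeks 4 were higher in MHCII-high cells, Sqle, Cyp51 and Sc5d among them, with a median over the list of 0.66, a count that fell to 1 with library totals, with edgeR or with no filter on low values. Fitting only the groups compared left 5 of the 12 calls against control and 4 of the 11 from 2 to 4 weeks.

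**Figure D4:**
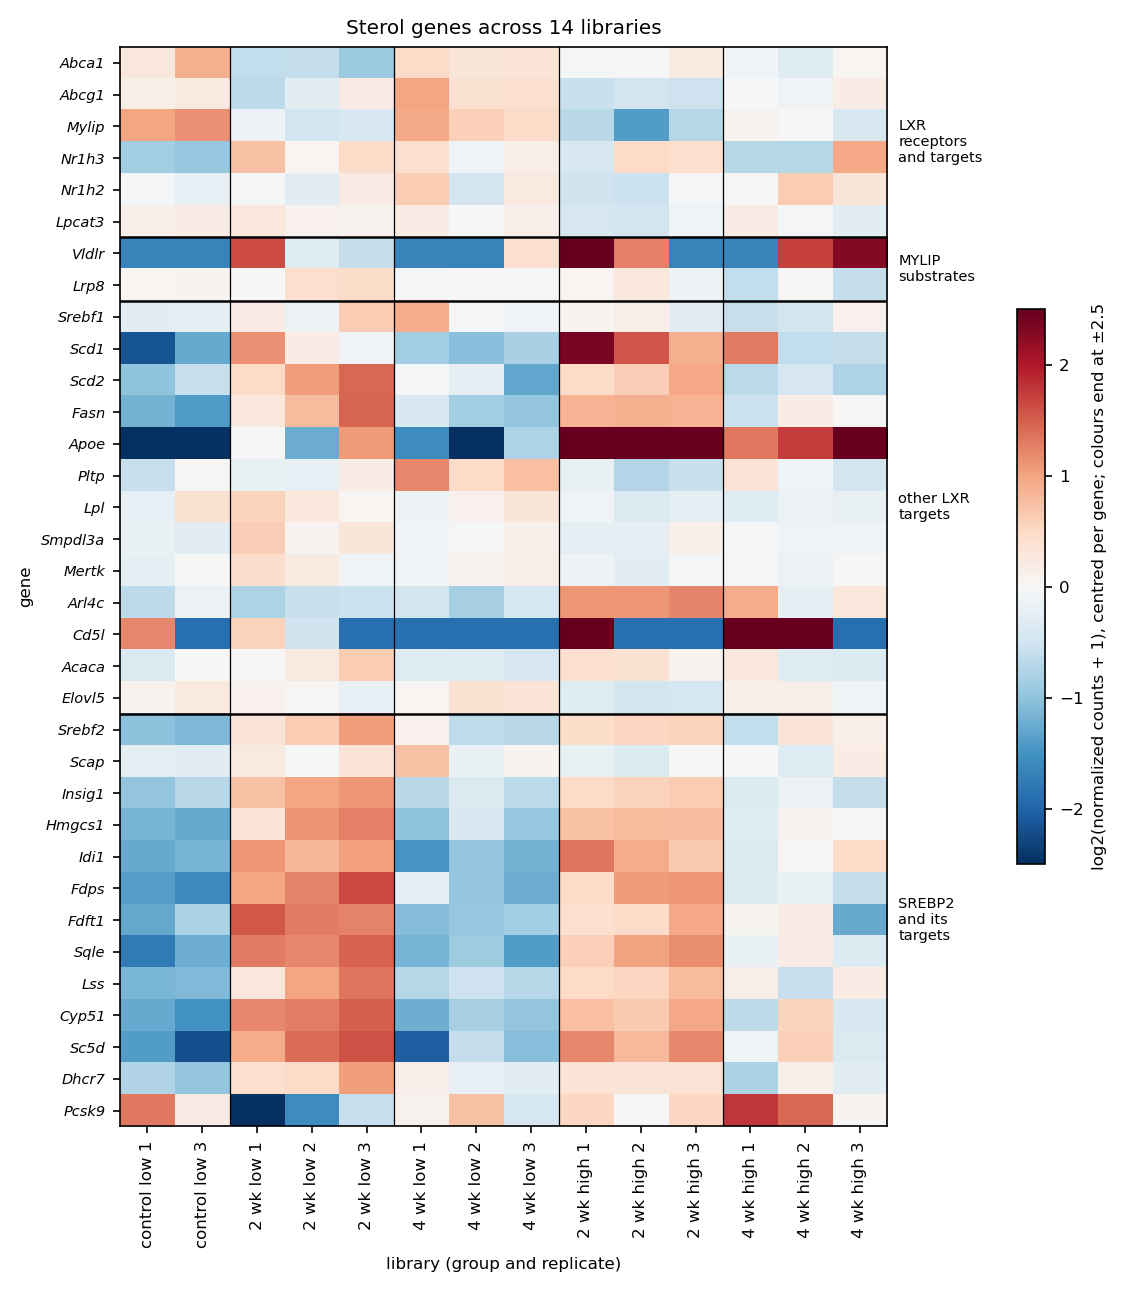
Log2(normalized counts + 1) of selected sterol genes in 14 libraries (columns), each gene (row) centred on its own mean, with colours ending at ±2.5. Rows are grouped as LXR receptors and targets, MYLIP substrates, other LXR targets, and SREBP2 with its targets; Sqle and Cyp51 are higher in 2-week MHCII-low cells than in controls, and Abca1 and Mylip are lower.

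Of 13 other LXR targets tested in MHCII-low cells, 4 rose at 2 weeks against control and none was called lower, with a median log2 fold change of 0.48. Whether the list differed from Abca1 and Mylip was not tested. The 4 that rose were Fasn, fatty acid synthase (2.14 ± 0.29, SE, limma adjusted p 0.000125), Apoe, a carrier of exported cholesterol (5.35 ± 0.76, adjusted p 0.00024), and the stearoyl-CoA desaturases Scd1 and Scd2. Apoe, at 2.6 and 44.4 normalized counts in the controls, is also on the list of monocyte-derived macrophage genes. Fasn and Scd2 are driven by SREBPs as well as by LXR. By 4 weeks, relative to 2 weeks, Fasn (-1.59) and Scd2 (-1.52) fell and no other target was called. Elovl5, a fatty acid elongase, and Arl4c, a small GTPase tied to cholesterol transport, had their lowest mean at 2 weeks but were not called. Their 2-week libraries overlapped those of control and of 4 weeks. From 2 to 4 weeks Elovl5 differed by 0.28 ± 0.15 (SE) and Arl4c by 0.05 ± 0.25, and the 4 called targets went the other way against control. The means in control, 2-week and 4-week MHCII-low cells were 6859, 6012 and 7310 normalized counts for Elovl5 and 916, 769 and 801 for Arl4c. Pltp, the phospholipid transfer protein, had a log2 difference of 0.87 ± 0.23 (SE) between 4 and 2 weeks with an adjusted p of 0.101. In MHCII-high against MHCII-low cells at 2 weeks, Arl4c was higher (1.77 ± 0.25, adjusted p 0.00017), as was Apoe (3.48 ± 0.68, adjusted p 0.00558). At 4 weeks Apoe was higher (3.69 ± 0.68, adjusted p 0.00295) and Pltp was lower (-0.89 ± 0.23, adjusted p 0.044). Srebf1, a direct LXR target, was called in none of these comparisons.

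Among enzymes that make or clear LXR ligands, Ch25h, cholesterol 25-hydroxylase, rose in MHCII-low cells at 2 weeks against control by 1.37 ± 0.33 (SE) with a limma adjusted p of 0.0291. Hsd3b7, an enzyme of bile acid synthesis that uses oxysterols, was lower in MHCII-high cells at 2 weeks (-0.78 ± 0.18, adjusted p 0.0169). Of 13 genes of sterol hydrolysis, transport and storage, 3 were higher in MHCII-low cells at 2 weeks than in control. These were Stard4, a sterol carrier (1.69 ± 0.21, adjusted p 5.6e-05), Cav1, caveolin (1.25 ± 0.22, adjusted p 0.00269) and Scarb1, the receptor for high-density lipoprotein (1.15 ± 0.23, adjusted p 0.00745).

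Some markers of other cell types moved with several of these comparisons, and each summed list mostly follows its most abundant genes. In MHCII-low cells at 2 weeks, 9 of 18 genes of monocyte-derived or interstitial macrophages were higher than in control. The summed normalized counts of the 18 were 59220 to 68370 in controls and 114400 to 154000 at 2 weeks. Gpnmb (means of 43790 and 96070) and Csf1r (14120 and 23900), both abundant in controls, made up most of that sum. Of the genes not called, Cx3cr1 (83.4 and 112.8) and Ccr2 (682.9 and 896.7) had higher means at 2 weeks, and Ms4a7 (200.8 and 168) and Maf (106.9 and 75.6) had lower ones. The neutrophil list summed to 5124 to 9217 in controls and 14200 to 15660 at 2 weeks, with 2 of 7 tested genes called and Camp at 0. The 2 were Cxcr2 (means of 846.8 in controls and 4179 at 2 weeks) and Mmp8 (1149 and 5316). Csf3r, also abundant, had 4969 and 4888. The other tested genes were low, with 109.5 and 226.1 for S100a8, 44.7 and 60.7 for S100a9, 7.2 and 15.1 for Retnlg, and 43.4 and 26.7 for Ngp. The list of fibroblast and endothelial genes summed to 2025 to 2567 in controls and 3452 to 5644 at 2 weeks. Only Vwf, von Willebrand factor, was called (1.10) among 10 tested, and none of the 10 was at 0 in every library. Vwf made up most of the sum, with means of 1598 and 3506. Means fell for Pecam1 (196.5 to 129.9) and Dcn (58 to 29.1) and were near level for Cdh5 (221.4 and 220.3) and Kdr (84 and 88.5). They rose for Col1a1 (12.8 to 116.6), Col1a2 (29.3 to 195.2) and Pdgfra (54.7 to 157.2). Of 11 lung epithelial genes, Sftpc, surfactant protein C (3.47), and Cdh1, E-cadherin (1.01), were higher at 2 weeks than in control. The list's sums overlapped, at 17280 to 26620 in controls and 15410 to 20230 at 2 weeks. Scgb1a1, an airway club cell gene on the list, had a mean of 13790 in controls and 4640 at 2 weeks. Between 2 and 4 weeks 3 of the 18 monocyte-derived genes fell, and their sum at 4 weeks was 71920 to 85340. The neutrophil genes Cxcr2 and Mmp8 fell over the same interval, as did Col1a1, a collagen chain (-5.51), and Vwf (-0.92), and the sums at 4 weeks were 7335 to 8245 for neutrophil genes and 1856 to 2940 for fibroblast and endothelial genes. No epithelial gene was called between 2 and 4 weeks, and that list summed to 29080 to 38740 at 4 weeks. Most of this was Scgb1a1, with a mean of 21670. The part of these cells in the fall and rise of Abca1 and Mylip was not tested.

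MHCII-high cells had 10 of the 18 monocyte-derived genes higher than MHCII-low cells at each time. At 2 weeks the sums overlapped, at 144200 to 168100 in MHCII-high and 114400 to 154000 in MHCII-low cells. At 4 weeks they were 89290 to 99070 and 71920 to 85340. Gpnmb, the largest part of these sums, had lower means in MHCII-high cells (78430 against 96070 at 2 weeks, 45900 against 56330 at 4 weeks) and was not called. Genes of resident alveolar macrophages were lower in MHCII-high cells, 9 of 17 at 2 weeks (sums of 479500 to 600200 against 708500 to 914500) and 5 of 17 at 4 weeks. At 4 weeks their sums overlapped, at 524200 to 602300 in MHCII-high and 579700 to 788500 in MHCII-low cells. Dendritic cell genes summed to 1004 to 2157 in MHCII-high and 151 to 237 in MHCII-low cells at 2 weeks, and to 1280 to 2229 and 102 to 233 at 4 weeks, with Cd209a at 0 in all 6 MHCII-low libraries after bleomycin. Lymphocyte genes summed to 1260 to 1998 against 185 to 452 at 2 weeks and to 780 to 3861 against 83 to 2422 at 4 weeks, with Cd79b at 0 in the 4-week MHCII-low libraries. Of 11 alveolar epithelial genes, the surfactant protein genes Sftpc (2.03), Sftpa1 (2.02) and Sftpb (1.55) were higher in MHCII-high cells at 2 weeks, and Sftpc (3.21) and Lamp3 (3.86) at 4 weeks. The epithelial sums were 15660 to 26100 in MHCII-high and 15410 to 20230 in MHCII-low cells at 2 weeks, and 16960 to 24460 and 29080 to 38740 at 4 weeks. No fibroblast or endothelial gene and no neutrophil gene was called between MHCII levels at either time. The part of these cells in the differences of Abca1 and Mylip between MHCII levels was not tested. With the mitochondrial ribosomal RNA share as a covariate Abca1 remained higher in MHCII-high cells at 2 weeks (0.84, adjusted p 0.048), and Abca1 and Mylip remained lower in MHCII-low cells at 2 weeks than in control (-1.36 and -1.49, adjusted p 0.0013 and 0.0045).

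The genes most like each member were taken by the smallest root mean square difference of centred log2 values over the 14 libraries, among 11571 genes of sufficient level. Abca1, whose own SD on that scale was 0.47, was nearest to Icosl (0.29), Gtf2e1 (0.32) and Ahnak (0.33). Abcg1 (SD 0.44) was nearest to Cdc42ep3 (0.22), Rara (0.23) and Lmna (0.23). Mylip (SD 0.72) was nearest to Rasgrf2 (0.31) and Gm26863 (0.35), the first and the third in likeness, and among the members Abcg1 ranked 104th and Abca1 410th in likeness to it. Nr1h3 (SD 0.61) was nearest to Commd2 (0.32), Nr1h2 (SD 0.36) to Fastk (0.18), and Lpcat3 (SD 0.22) to Slc16a10 (0.11). No member was among the 3 nearest genes of another.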

How the data were processed

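RNA-seq covered 14 libraries. Lungs were digested after perfusion, per the labels' protocols, cells were sorted on 1 of a pair of sorter models, and mRNA was captured on beads, amplified as cDNA and made into libraries by transposase tagging, with no molecular identifiers described. The submitters' processing notes name STAR, DESeq2 and mm10, with no versions or roles, and the counting program is not given in the sources used here. Per the file headers, the deposited values are normalized counts, a signal scaled by library that the authors gave to 1 decimal. They were whole multiples of the worth of 1 read: 99.65% to 100% of values came out whole within the rounding of 0.05, depending on the library, and 78.54% did within 0.1 of a read in control replicate 1, whose step is smallest. Gene spans, exon lengths and GC percent were used as deposited by the authors, and 90.2% of 42462 genes shared with GENCODE had the same span. Replicates of a group all differed by more than sampling noise (mean chi-square per gene 66.1 to 489.6).

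Since the values are normalized, limma 3.58.1 (R 4.3.3), run with its trend option on log2(value + 1), gave the test, the choice stated for such values, in 1 fit of all 14 libraries with a coefficient per group and 9 residual degrees of freedom. A gene entered if 2 or more libraries had 10 or more normalized counts. Benjamini-Hochberg adjustment of p-values ran over all genes tested within each of 8 comparisons, with a threshold of 0.05. Adjusted p-values are limma's unless another tool is named. Fold changes on this scale understate those of low genes. Checks used edgeR 4.0.16 and DESeq2 1.42.0 on the recovered reads, other pseudocounts, filters and scalings, a GC correction, a covariate, a replicate block, and each library left out. Scripts were tested on simulated data.

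All members are named with every value. From each other list the text names up to 2 genes with the smallest p and, after their values were seen, those making up counts of 5 or fewer. Srebf1, Lrp8, Vldlr and Rxrg are also named. Further genes of the cell type lists are named, likewise after their values were seen, where they weigh most in a sum or differ from it. The members and lists were chosen with earlier results of these data known. Some genes that the naming rule covers are not reported here.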

Additional observations from a re-analysis of the deposited data

Results flagged for a closer look

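Abca1 was flagged because its difference between MHCII-high and MHCII-low cells had opposite signs at the 2 times in every library. All 3 MHCII-high libraries lay above all 3 MHCII-low libraries at 2 weeks and below them at 4 weeks. The test of the difference itself gave -1.25 on the log2 scale (95% interval -1.76 to -0.75, limma adjusted p 0.12, and 0.0018 with DESeq2). Its adjusted p ranged from 0.0018 to 0.56 over the alternatives, and its value from -1.33 to -0.93. The change lay mostly in the MHCII-low cells, where Abca1 differed by 1.08 between the times, against -0.17 in MHCII-high cells.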

How the results depend on the processing

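Fold changes of the 6 members were recomputed under 26 alternatives, 1224 values in all: 1142 kept their direction and side of the threshold, 30 passed it newly, 16 lost it and 36 changed sign. For each change below the cause was not tested. Scaling to library totals moves all genes of a library by the same factor, while removing the GC trend moves each gene according to its GC percent. Library totals shifted the median log2 fold change of all genes by -0.15 to 0.15 and the GC trend by -0.33 to 0.33. Relative to that median the members moved little with library totals. Without the GC trend Mylip at 2 weeks between MHCII levels stayed at -0.67 relative to the median. Nr1h2, the member richest in GC (58.88%), went from -0.09 to 0.09 between MHCII levels over both times. The GC correction left out 84 genes with no GC value.

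Members called between MHCII levels at 2 weeks (1) became 0 with library totals and 2 without the GC trend (Lpcat3 and Mylip), and 0 to 1 with a library left out. At 4 weeks (0) they became 1 with the filter at 50, library totals, TMM factors, edgeR and DESeq2, and 0 to 1 with a library left out. Over both times (1) they became 2 with library totals, edgeR or DESeq2, 3 with TMM factors or without the GC trend, 0 with the mitochondrial covariate, and 1 to 2 with a library left out. In MHCII-low cells at 2 weeks against control (2), fitting only the groups compared, an alternative added after seeing the data, gave 0, and leaving out a library 1 to 3. From 2 to 4 weeks in MHCII-low cells (2), no filter gave 1, only the groups compared gave 0, and leaving out a library 1 to 2. From 2 to 4 weeks in MHCII-high cells (0), the GC correction gave 2, DESeq2 gave 1 and a library left out 0 to 1. The difference of differences (0) became 1 with DESeq2. At 4 weeks against control the count was 0 throughout.

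Weak correlations left pairing by replicate number open. Deviations of same-numbered MHCII-high and low libraries correlated by 0.107, 0.068 and 0.025 at 2 weeks and 0.009, 0.034 and 0.015 at 4 weeks. Not every library correlated best with its own number. With the replicate block 1 member (Mylip, adjusted p 0.026) was called at 4 weeks, 1 gene passed in the difference of differences, and in the other comparisons it could be fitted to, between MHCII levels at 2 weeks and over both times, the count of members did not change.

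Values that changed sign, none of them called in either fit, were these. Abca1 between MHCII levels over both times was -0.01 with library totals and -0.02 without the GC trend, and without that trend 0.07 from 2 to 4 weeks in MHCII-high cells. With the mitochondrial covariate Nr1h2 was 0.04 over both times and -0.03 at 2 weeks against control. Lpcat3 at 2 weeks against control was 0.04 with TMM factors or edgeR, 0.29 without the GC trend and 0.01 with DESeq2. At 4 weeks against control it was 0.10 with library totals and 0.15 without the GC trend, and from 2 to 4 weeks in MHCII-low cells 0.12 with library totals, where Nr1h2 was -0.05 without the GC trend. In the difference of differences, removing the GC trend gave 0.08 for Abcg1, 0.17 for Mylip and 0.28 for Nr1h3, which was 0.13 with edgeR and 0.14 with DESeq2. With a library left out, ranges that crossed 0 were, between MHCII levels, -0.43 to 0.04 for Nr1h3 at 2 weeks, -0.12 to 0.43 for Nr1h2 at 4 weeks and -0.22 to 0.05 for Nr1h2 over both times. Against control at 2 weeks they were -0.03 to 0.21 for Nr1h2 and -0.06 to 0.03 for Lpcat3, and at 4 weeks -0.51 to 0.08 for Abca1 and -0.08 to 0.01 for Lpcat3. From 2 to 4 weeks in MHCII-low cells they were -0.09 to 0.46 for Nr1h2 and -0.08 to 0.03 for Lpcat3, and in the difference of differences -0.63 to 0.21 for Nr1h3.

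Genes called among all tested moved by more than 1.5 times as follows. Between MHCII levels at 2 weeks 499 became 316 with no filter, 1676 without the GC trend (377 of them higher, against 398 of 499), 207 with the covariate, 311 with only the groups compared and 1055 with DESeq2. At 4 weeks 434 became 282 with no filter, 56 with only the groups compared and 898 with DESeq2, and over both times 1254 became 1917, 500 (covariate) and 2122 (DESeq2). At 2 weeks against control 332 became 846 without the GC trend, 213 with the covariate, 36 with only the groups compared and 660 with DESeq2. At 4 weeks against control 8 became 65 with no filter, 34 without the GC trend, 2 with the covariate or edgeR, 0 with only the groups compared and 77 with DESeq2. From 2 to 4 weeks 149 became 93 with library totals, 15 with only the groups compared and 322 with DESeq2 in MHCII-low cells. In MHCII-high cells 186 became 103 with no filter, 99 with library totals, 411 without the GC trend, 112 with edgeR, 0 with only the groups compared and 638 with DESeq2. With a library left out the counts spanned 203 to 624, 266 to 480, 127 to 406, 1 to 17, 95 to 183 and 64 to 299 in the order given, leaving aside both times together, and 0 to 2 for the difference of differences. Scaling also moved the split of calls: higher calls were 250 of 363 with library totals at 2 weeks between MHCII levels. Over both times they were 870 of 1254 as deposited, 623 of 1339 with library totals, 767 of 1401 with TMM factors and 696 of 1917 without the GC trend. From 2 to 4 weeks in MHCII-high cells they were 54 of 186, 46 of 99 with library totals and 307 of 411 without the GC trend. Against control they were 258 of 332 at 2 weeks and 792 of 846 without that trend, and at 4 weeks 6 of 8, 8 of 8 with library totals and 32 of 34 without that trend. The lowest value of a member rested on 198 reads.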

Other observations

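Among relatives of the efflux transporters, 2 of 11 tested were higher in MHCII-high than in MHCII-low cells at each time and none was lower. Abca9, a transporter regulated by cholesterol in macrophages, had 1201 ± 116.2 normalized counts (SD, n = 3) in MHCII-low and 4534 ± 284.9 in MHCII-high cells at 2 weeks, and 1413 ± 65.9 and 4876 ± 870.6 at 4 weeks. Its log2 fold changes were 1.92 ± 0.17 (SE, limma adjusted p 5.22e-07) and 1.77 ± 0.17 (9.1e-07), where Abca1 had opposite signs at the 2 times. Abcg3 was 2.2 to 12.1 normalized counts in MHCII-low and 80.3 to 233.7 in MHCII-high cells at 2 weeks, and at most 12.8 against 228.8 to 534.9 at 4 weeks. Among relatives of Lpcat3, Lpcat2 (1.14 ± 0.23, adjusted p 0.00731) and Lpcat1 (0.93 ± 0.24, 0.0455) were higher in MHCII-low cells at 2 weeks than in control, and the other 4 of 6 tested were not called.

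Of 8 other lipid-sensing nuclear receptors tested, Rara, the retinoic acid receptor alpha, was lower in MHCII-high than in MHCII-low cells at 2 weeks (-0.65 ± 0.17, SE, limma adjusted p 0.0458). It rose from 2 to 4 weeks in MHCII-high cells (0.85 ± 0.17, adjusted p 0.0205), from 4559 ± 181 to 8240 ± 857.7 normalized counts (SD, n = 3). Pparg, which directs the alveolar macrophage programme, had a difference of -0.49 ± 0.14 at 2 weeks (adjusted p 0.0707).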
